A study of Mus musculus with 6 samples.

Results

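Among the transcripts of mouse 2-cell embryos counted here, 109 gene models known only by a Gm number at the time of counting were abundant. They were chosen as the rows of the count table whose symbol is Gm followed by digits and whose mean over all 6 libraries is at least 20 CPM (a row's count over the total count of its library, times 1000000), so that they were selected on their mean CPM over both groups. They are 109 of 856 Gm-numbered rows and of 18660 rows in all, and 6015 other rows reach the same mean. The first group holds 3 libraries of embryos treated with sodium arsenite, a trivalent arsenic salt, at 5 µM in G1-PLUS medium. The other group holds 3 control libraries, labelled 0 µM. The RNA of all 6 libraries was polyadenylated RNA of whole 2-cell embryos, and the labels give neither strain, nor embryo number per library, nor length of treatment. Whether replicates came from separate cultures is not stated, and p-values then measure only how far these libraries scatter, which can be technical scatter.

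A Gm number is the placeholder that mouse nomenclature gives to a predicted gene that has not received a functional name. Many such models lie in tandem arrays of nearly identical copies, others are long noncoding RNAs, and others are processed copies of well known genes. At the 2-cell stage the mouse embryo begins to transcribe its own genome while RNA stored in the egg is cleared, and several multicopy families, among them PRAME-like and Eif1a-like genes, are known for their transcripts at this stage. RefSeq matched 91 of the 109 symbols directly and 17 through an older symbol, such as Gm13023, now Pramel25, and it had no entry for Gm17066. Of the 109, RefSeq types 60 as protein coding (55.0%), 26 as long noncoding RNA (23.9%) and 22 as transcribed pseudogene (20.2%). Of the 6015 other rows with a mean of at least 20 CPM, 98.4% are protein coding, 1.01% long noncoding and 0.366% transcribed pseudogene. On the map, 47 of the 108 members with a position lie in 12 groups, each with gaps of at most 1 Mb. The most crowded is a stretch of chromosome 12 (chr12:87514316-88321762, GRCm38.p6) with 12 members, followed by chr4:143719451-144364419 with 7 and chr5:94526284-95522402 with 5.

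Promoter windows, 250 bases before to 50 bases after the annotated start, were found in RefSeq (GRCm38.p6) for 63 of the 109 members. Their median GC content was 47.0%, against 52.7% over the 27025 promoters of all genes, and the median number of CpG was 3, against 7. TAATCC, the core that OTX and OBOX homeodomain proteins bind, was found on either strand in 13 of 63 windows (20.6%), against 7.16% of all promoters. It was in 2 of the 17 windows of members called higher with arsenite and in 1 of the 4 of members called lower. Some of the 13 windows are alike, such as those of Gm13102 and Gm8994 (78.4% identical), so they are not separate cases. TATAAA was found in 17.5%, against 14.2% of all, and the GC box GGGCGG in 19.0%, against 35.9%. The other motifs searched were CCAAT and AAGGTCA, listed as a site of NR5A2. CCAAT was found in 47.6%, against 37.9% of all, and AAGGTCA in 1 of 63 windows (1.59%), against 4.66%. Of the 17 windows of members called higher, TATAAA was in 5, CCAAT in 3, AAGGTCA in 1 and GGGCGG in 3. Of the 4 of members called lower, CCAAT was in 3, GGGCGG in 1, and TATAAA and AAGGTCA in 0. These shares were not tested. A match is a description of letters in this window and not a binding site. Members with alike windows were looked for, and 3 sets are shown because their members lie on different chromosomes or move differently with arsenite. Capitals mark the longest run of bases that all windows of a set share exactly, on the gene's own strand.

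Gm2042 and Gm13023 are PRAME-like genes on chromosomes 12 and 4, their windows are identical at 268 of 319 aligned positions (84.0%), and the shared run is 58 bases. Their positions are chr12:87954230-87954529 and chr4:143789084-143789383, both on the plus strand.
Gm2042: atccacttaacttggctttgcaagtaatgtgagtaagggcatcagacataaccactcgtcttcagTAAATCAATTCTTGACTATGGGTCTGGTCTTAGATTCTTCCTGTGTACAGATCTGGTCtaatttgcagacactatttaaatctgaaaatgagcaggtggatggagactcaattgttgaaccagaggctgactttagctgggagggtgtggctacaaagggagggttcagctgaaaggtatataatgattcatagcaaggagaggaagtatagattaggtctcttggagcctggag
Gm13023: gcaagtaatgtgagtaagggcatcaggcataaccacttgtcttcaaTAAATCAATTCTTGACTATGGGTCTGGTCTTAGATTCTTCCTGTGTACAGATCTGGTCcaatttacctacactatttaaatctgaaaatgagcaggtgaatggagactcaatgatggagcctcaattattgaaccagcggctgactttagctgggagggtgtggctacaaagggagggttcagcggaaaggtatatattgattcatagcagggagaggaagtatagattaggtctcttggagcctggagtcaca

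Gm17751 and Gm3143 are long noncoding RNAs on chromosomes 1 and 3 whose transcripts are not alike by the criteria used here (80% identity over 50% of the shorter one), yet 217 of 320 aligned positions of their windows are identical (67.8%). Their positions are chr1:76488883-76489182 on the plus strand and chr3:34716613-34716912 on the minus strand, and the shared run is 24 bases.
Gm17751: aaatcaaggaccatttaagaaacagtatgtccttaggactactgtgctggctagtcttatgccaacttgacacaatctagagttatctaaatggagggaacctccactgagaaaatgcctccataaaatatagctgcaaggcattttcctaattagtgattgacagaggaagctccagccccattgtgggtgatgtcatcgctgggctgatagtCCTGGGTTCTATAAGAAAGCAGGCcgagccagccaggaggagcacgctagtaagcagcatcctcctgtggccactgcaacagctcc
Gm3143: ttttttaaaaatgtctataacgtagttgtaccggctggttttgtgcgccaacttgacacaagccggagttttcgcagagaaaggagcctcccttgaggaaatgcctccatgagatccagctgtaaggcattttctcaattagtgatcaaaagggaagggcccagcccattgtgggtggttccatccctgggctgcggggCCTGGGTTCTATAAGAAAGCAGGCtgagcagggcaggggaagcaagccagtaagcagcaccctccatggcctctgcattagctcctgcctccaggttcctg

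Gm13102, Gm12789 and Gm8994 form a set whose windows are at least 78.4% identical in pairs and share a run of 26 bases, though their transcripts are not alike. Gm13102 is a PRAME-like gene (chr4:144099630-144099929), Gm12789 has no named relative found here (chr4:101986590-101986889), and Gm8994 is now Eif4a3l1, a copy of the RNA helicase gene Eif4a3 (chr6:136327289-136327588). All are on the plus strand.
Gm13102: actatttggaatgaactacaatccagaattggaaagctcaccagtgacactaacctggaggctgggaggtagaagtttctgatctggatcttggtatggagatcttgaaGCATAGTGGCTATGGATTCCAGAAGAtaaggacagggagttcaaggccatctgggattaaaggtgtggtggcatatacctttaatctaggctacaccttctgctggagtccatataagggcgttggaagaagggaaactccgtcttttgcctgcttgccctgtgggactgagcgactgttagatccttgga
Gm12789: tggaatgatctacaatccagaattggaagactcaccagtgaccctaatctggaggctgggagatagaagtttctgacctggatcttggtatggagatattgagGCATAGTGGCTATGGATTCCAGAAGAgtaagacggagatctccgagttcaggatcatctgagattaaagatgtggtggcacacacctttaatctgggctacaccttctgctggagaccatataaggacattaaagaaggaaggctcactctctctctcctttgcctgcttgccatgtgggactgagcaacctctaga
Gm8994: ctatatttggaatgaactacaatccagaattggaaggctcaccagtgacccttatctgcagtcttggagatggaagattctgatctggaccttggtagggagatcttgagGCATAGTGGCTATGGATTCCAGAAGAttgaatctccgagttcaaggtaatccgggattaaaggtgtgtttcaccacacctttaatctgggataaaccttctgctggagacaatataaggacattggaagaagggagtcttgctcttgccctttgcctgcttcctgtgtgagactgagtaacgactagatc

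Library totals lay between 7758507 and 8519265 counts, so that 3 counts, the floor used here, are 0.352 to 0.387 CPM, and such floors cover counting error only, since PCR copies carry no molecular identifiers here and need not be separate molecules. The embryo labels were set beside marker lists. The 2-cell list (20 of its 22 genes in the table, none at 0) summed to 2663, 3113 and 6254 CPM in arsenite replicates 1, 2 and 3 and to 1393, 2078 and 1334 CPM in controls 1, 2 and 3. Oocyte and maternal markers (15 of 15) summed to 6761 to 10089 CPM with arsenite and to 1487 to 2598 CPM in controls. With arsenite Btg4, Rfpl4 and Bmp15 gave most of this sum, Btg4 alone 3694, 6357 and 2909 CPM in replicates 1, 2 and 3. Of the 15 genes 7 were called higher and none lower in the edgeR fit given below. Zp3 and Padi6 had negative log2 fold changes (−0.70 ± 0.31 and −0.09 ± 0.45, SE), and Zp3 lay below every control in every arsenite library. Cumulus and granulosa markers (8 of 13, with Amh, Inha, Fshr, Lhcgr and Ptx3 not among the rows) summed to 10.9 to 18.0 CPM with arsenite and 2.35 to 6.90 CPM in controls. Sperm markers (5 of 7, without Tnp2 and Smcp) summed to at most 3.61 CPM in any library. Blood and fibroblast markers (3 of 8) summed to at most 5.84 CPM. The 3 are the collagen genes Col1a1, Col1a2 and Col3a1, and Ptprc and the globin genes are not among the rows, so blood was not assessed. The 2-cell and the maternal sums lay entirely higher with arsenite, as did the small cumulus sum, and the part of these differences in the results below was not tested.

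The Gm rows took more of the library with arsenite than in controls. They made up 3.02, 3.25 and 3.50% of all counts in arsenite replicates 1, 2 and 3 and 1.99, 2.24 and 1.80% in controls 1, 2 and 3. The groups did not overlap, at 3.26 ± 0.240% with arsenite and 2.01 ± 0.221% in controls (SD, n = 3 each), and no test is given for a sum over chosen rows. The 5 members with most counts made up 1.38 ± 0.274% with arsenite and 0.719 ± 0.0993% in controls. Because each library is bulk RNA of embryos, more transcript per cell and more embryos or cells that hold it cannot be told apart.

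All 109 members passed the filter on low counts, and in the fit over 12582 rows (edgeR's quasi-likelihood test, a call being a Benjamini-Hochberg adjusted p below 0.05) 30 rose, 6 fell and 73 did neither. Of all tested rows 9.43% were called higher and 7.26% lower, and of the other rows with a mean of at least 20 CPM 12.7% and 11.4%, where the members gave 27.5% and 5.5%. The 60 protein-coding members gave 12 rises and 4 falls, 20% and 6.67%, beside 12.6% and 11.4% of the other protein-coding rows at that mean. The median log2 fold change, arsenite over control, was 0.69 over the members and 0.07 over all tested rows. The mean behind the choice includes the arsenite libraries, so that a row high only with arsenite could enter through them. Among the members named in the text, Gm13103, Gm31579, Gm5820, Gm10745, Gm14325, Gm8787, Gm12794 and Gm5065 have control means under 20 CPM and entered this way. Gm14405, Gm20939 and Gm6880 have arsenite means under 20 CPM and entered through the controls. The direction of these rows is not separate from the choice. Every arsenite library lay above every control for 31 members and below for 12, and over all tested rows this held for 19.2% and 22.1%. Without control replicate 3 the calls were 7 higher and 1 lower, without arsenite replicate 1 they were 16 and 1, and without control replicate 1 they were 21 and 2. These fits call fewer rows in all, since of all tested rows only 1.62% higher and 1.41% lower calls were left without control replicate 3, 2.44% and 1.35% without arsenite replicate 1, and 5% and 3.05% without control replicate 1. With the replicate number as a block 39 members were called higher and 9 lower, where all tested rows gave 13.4% and 12.6%. The members that kept their call in each of the 6 fits with a library left out were Gm4541, Gm36480, Gm13752, Gm3259, Gm6367, Gm1965 and Gm5820, which rose, and Gm13102, which fell; Gm1965 and Gm5820 are named after their values were seen.

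**Figure D1:**
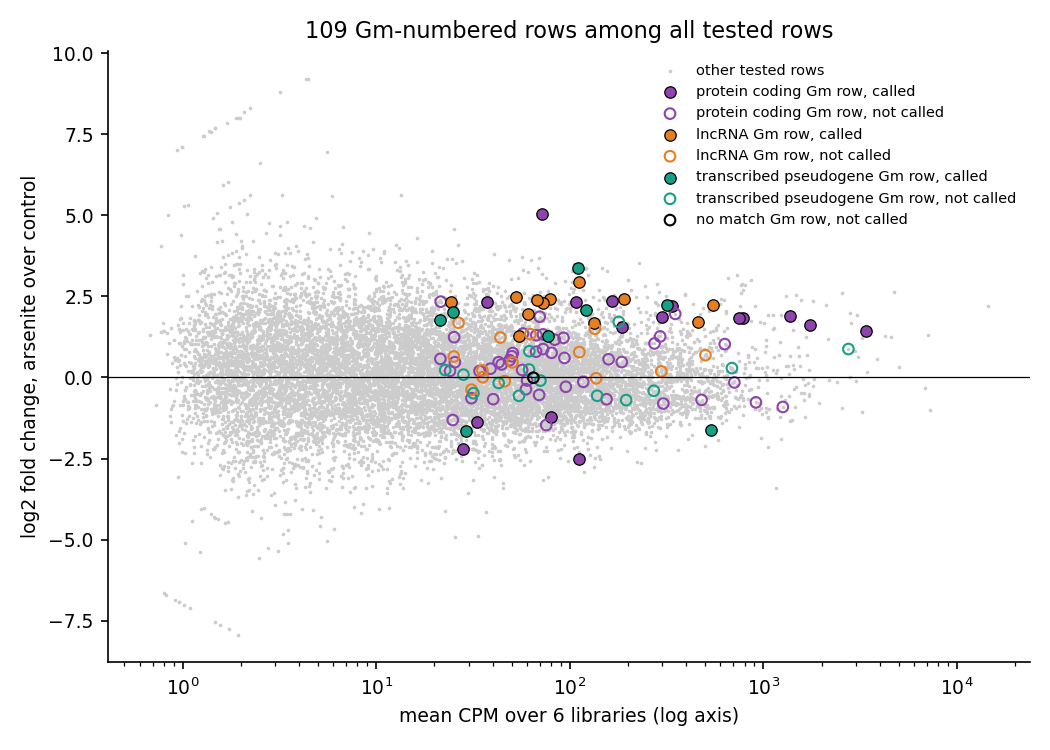
Log2 fold change, arsenite over control, against the mean CPM over 6 libraries on a log axis for every tested row (grey) and for the 109 Gm rows, coloured by RefSeq type and filled where the adjusted p is under 0.05 in edgeR. Of the filled points 30 lie above 0 and 6 below it, and the long noncoding rows have filled points above 0 only.

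The Eif1a-like copies on chromosome 12 were far higher in 1 arsenite library than in the other libraries. Eif1a codes for a translation initiation factor that helps the ribosome find the start codon, and the copies are relatives of BB287469, a multicopy gene of 2-cell embryos. The 7 members, Gm2016, Gm2022, Gm5662, Gm6803, Gm8300, Gm5039 and Gm21319, have transcripts at least 97.0% identical to another member of the family, so reads may be split between them and their single values are uncertain. Their sum was 2935, 1609 and 7014 CPM in arsenite replicates 1, 2 and 3 and 688, 1911 and 1097 CPM in controls 1, 2 and 3. Arsenite replicate 3 stood highest of the 6 libraries for all 7 members, and the groups overlapped in each, since control replicate 2 lay above arsenite replicate 2.

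Gm5662 (chr12:88270635-88274497) had 894, 532 and 2125 CPM in arsenite replicates 1, 2 and 3, against 231, 576.97 and 344 CPM in controls 1, 2 and 3, a log2 fold change of 1.84 ± 0.52 (SE, adjusted p = 0.0379, edgeR). Gm2016 had 892, 459 and 2044 CPM with arsenite, against 222, 555 and 336 CPM in controls, a log2 fold change of 1.82 ± 0.54 (adjusted p = 0.0422, edgeR). Gm2022 had 401, 203 and 1012 CPM with arsenite, against 66.7, 278 and 144 CPM in controls, at an adjusted p of 0.0518 that became 0.0450 with the replicate number as a block (edgeR). All 3 members order the libraries alike, with arsenite replicate 3 highest and control replicate 1 lowest. Gm8300 (adjusted p = 0.0319, edgeR) and Gm6803 (0.0432) were also called higher, and Gm21319 (0.0568) and Gm5039 (0.0745) were not, so that 4 of the 7 rose and none fell. Gm8300, Gm6803, Gm21319 and Gm5039 are named after their values were seen. Each of the 4 calls ended when any one of 5 libraries was left out, all but arsenite replicate 2, with adjusted p up to 0.127 for Gm5662, 0.146 for Gm2016, 0.105 for Gm8300 and 0.180 for Gm6803. Scaling by library size only also ended those of Gm5662 (0.053), Gm2016 (0.0597) and Gm6803 (0.0629), and limma-voom that of Gm6803 (0.0704). Without arsenite replicate 3 the log2 fold change of Gm5662 was 1.02 and its adjusted p 0.124. BB287469 itself had 647, 399 and 2039 CPM with arsenite and 137, 344 and 207 CPM in controls (log2 fold change 2.39 ± 0.60, adjusted p = 0.0241, edgeR), a call that ended without arsenite replicate 1 (0.0537), arsenite replicate 3 (0.0588), control replicate 1 (0.0838) or control replicate 3 (0.0911). Eif1a is the closest named gene of Gm21319, 86.4% identical over 77.4% of the shorter transcript. It had 184, 252 and 144 CPM with arsenite and 235, 147 and 248 CPM in controls (−0.04 ± 0.32, adjusted p = 0.949, edgeR). Of a list of 9 Eif1a-like genes of 2-cell embryos, 6 are rows of the table, namely 5 of the members above and BB287469. Of these 6 rows 5 rose, with a median log2 fold change of 1.91. The list thus repeats values already given and is no separate support.

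The same stretch of chromosome 12 holds members that behaved differently. Gm1995 and Gm7104 resemble Rexo1, which codes for a predicted RNA exonuclease, and their transcripts are 97.5% identical to each other. Their single values are therefore uncertain. Gm1995 had 127, 116 and 409 CPM in arsenite replicates 1, 2 and 3, against 326, 316 and 336 CPM in controls 1, 2 and 3. Arsenite replicates 1 and 2 lay below every control and replicate 3 above, and the difference did not pass (log2 fold change −0.41 ± 0.48, adjusted p = 0.579, edgeR). Gm7104 had 79.2, 68.6 and 166 CPM with arsenite, against 176, 170 and 171 CPM in controls (−0.57 ± 0.39, adjusted p = 0.327). Without arsenite replicate 3 both were called lower, at adjusted p = 0.0279 for Gm1995 and 0.0445 for Gm7104 (edgeR). That library was the highest arsenite library for both, so leaving it out favours a lower call. Neither was called in any other fit with a library left out. Gm16381, a relative of the ubiquitin-like gene Ubl5 that is named here after its values were seen, had 346, 156 and 1905 CPM with arsenite, against 257, 582 and 544 CPM in controls (1.03 ± 0.75, adjusted p = 0.360). Arsenite replicate 3 was thus the highest library for 9 of the 13 members on chromosome 12, and for 35 of all 109 members and 1710 of 12582 tested rows. The 2-cell marker sum was highest in this library too, at 6254 CPM. Of that sum 2039 CPM came from BB287469, the relative of the Eif1a-like copies, so the sum is not separate from them. The part of the sum in these values was not tested.

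**Figure D2:**
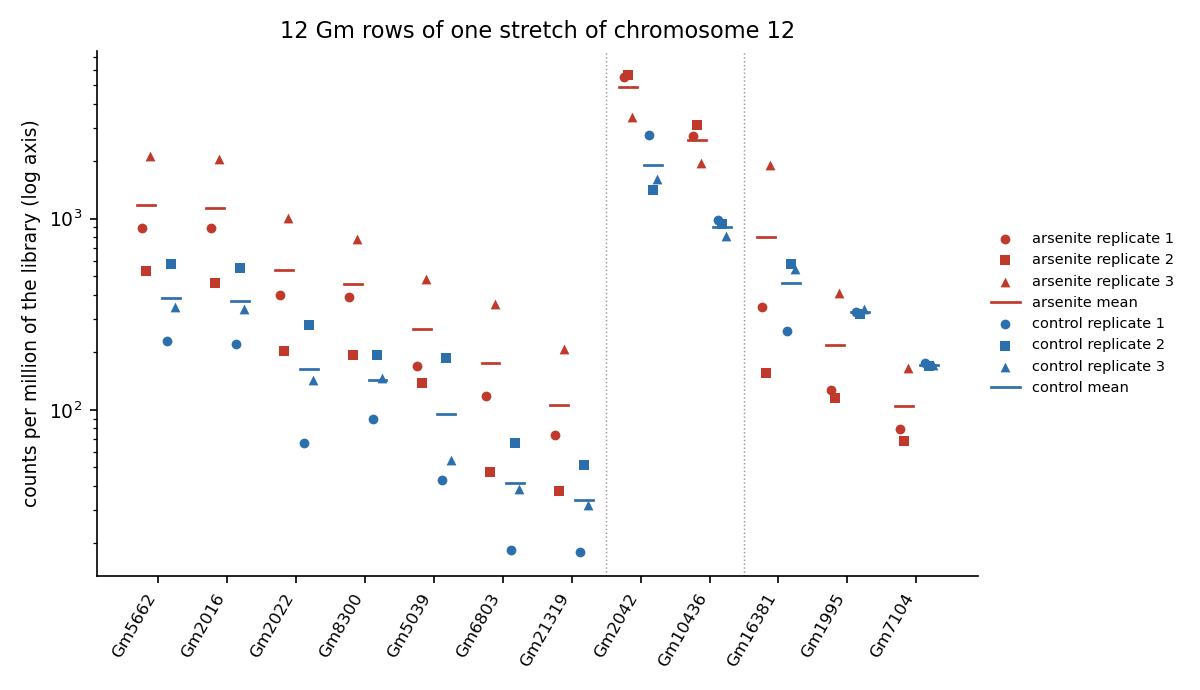
CPM on a log axis in each arsenite library (red) and control library (blue) for the 12 Gm rows of chr12:87514316-88321762, with bars at group means: 7 Eif1a-like copies on the left, the PRAME-like Gm2042 and Gm10436 in the middle, and Gm16381, Gm1995 and Gm7104 on the right. The triangles of arsenite replicate 3 stand highest in every Eif1a-like copy and lowest among the arsenite points in Gm2042 and Gm10436.

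PRAME-like genes, paralogues of a human tumour antigen gene with leucine-rich repeats, are arranged in tandem in mouse and known for transcripts of the germ line and early embryo. The 3 members with the closest kinship to C87977, a PRAME-like gene, lie on chromosome 12 (Gm2042, and Gm10436, now Pramel51) and chromosome 4 (Gm13023, now Pramel25), and all 3 rose. Gm2042, which took the most counts of all members, had 5507, 5675 and 3423 CPM in arsenite replicates 1, 2 and 3, against 2728, 1407 and 1605 CPM in controls 1, 2 and 3. The groups did not overlap, and the log2 fold change was 1.43 ± 0.37 (SE, adjusted p = 0.0280, edgeR). Gm10436 had 2701, 3095 and 1955 CPM with arsenite, against 985, 934 and 809 CPM in controls (1.61 ± 0.29, adjusted p = 0.00831, edgeR). Gm13023, whose promoter window is printed above beside that of Gm2042, had 2654, 2099 and 1627 CPM with arsenite, against 831, 479 and 533 CPM in controls (1.89 ± 0.35, adjusted p = 0.00929, edgeR). In all 3 the lowest arsenite library was replicate 3 and the highest control was replicate 1, where the Eif1a-like copies have replicate 3 as their highest arsenite library and replicate 1 as their lowest control. Their transcripts are 95.8% to 98.9% identical, so single values are uncertain, and their sum was 10861, 10869 and 7005 CPM with arsenite and 4544, 2819 and 2947 CPM in controls. C87977 had 2290, 1227 and 1418 CPM with arsenite and 733, 278 and 372 CPM in controls (1.93 ± 0.45, adjusted p = 0.0189, edgeR), a call that ended without arsenite replicate 1 (0.0790), control replicate 2 (0.0525) or control replicate 3 (0.0836). Without control replicate 3 the adjusted p was 0.118 for Gm2042, 0.0558 for Gm10436 and 0.0559 for Gm13023, and Gm2042 also lost its call without arsenite replicate 1 (0.100), arsenite replicate 2 (0.0524) or control replicate 2 (0.0668). The maternal marker sum, with arsenite mostly Btg4, Rfpl4 and Bmp15, moved the same way in these libraries, though not every gene of that list did. Its part here was not tested.

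The chromosome 4 neighbours of Gm13023 went both ways. Of the 7 members in chr4:143719451-144364419, which include Gm13023 itself, 3 rose, Gm13023 among them, and 2 fell. Gm13103, now Pramel27 and a relative of the oocyte gene Oog3, had 216, 197 and 2.45 CPM in arsenite replicates 1, 2 and 3, against 2.46, 8.94 and 2.46 CPM in controls 1, 2 and 3. Arsenite replicates 1 and 2 were far above the controls and replicate 3 was level with the lowest of them, so the groups overlapped under a log2 fold change of 5.03 ± 1.16 (adjusted p = 0.0189, edgeR). Its call ended without arsenite replicate 1 (0.0687), control replicate 1 (0.0715) or control replicate 3 (0.0803), and with limma-voom (0.177). Oog3, 87.8% identical in transcript, had 8851, 4741 and 4153 CPM with arsenite and 4166, 752 and 2850 CPM in controls, and was called higher with the replicate block and not without it (1.26 ± 0.57, adjusted p = 0.147, with the block 0.0218, edgeR). Gm13084, now Pramel26 and 98.0% identical to Oog2, is named after its values were seen. It had 947, 426 and 270 CPM with arsenite, against 167, 106 and 111 CPM in controls (2.20 ± 0.46, adjusted p = 0.0132, edgeR), and its call ended without arsenite replicate 1 (0.0537), control replicate 2 (0.0516) or control replicate 3 (0.0685).

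Gm13102 fell furthest of all members. It had 23.9, 48.6 and 22.2 CPM in arsenite replicates 1, 2 and 3, against 199, 209 and 168 CPM in controls 1, 2 and 3, with no overlap (log2 fold change −2.51 ± 0.34, adjusted p = 0.00463, edgeR). Its transcript is 99.9% identical to that of Pramel4 over 98.2% of the shorter one, so counts of this pair cannot be assigned with confidence. Pramel4 had 28.8, 61.5 and 30.5 CPM with arsenite, against 258, 263 and 216 CPM in controls (−2.51 ± 0.34, adjusted p = 0.00463). The other genes with these promoter letters were not called. Gm12789 had 58.6, 118 and 162 CPM with arsenite, against 194, 188 and 209 CPM in controls (−0.67 ± 0.38, adjusted p = 0.230), and Gm8994 had 14.5, 54.9 and 103 CPM, against 11.5, 98.7 and 19.1 CPM (0.65 ± 0.77, adjusted p = 0.585). Gm12789 lay lower in every arsenite library without passing the test, and the groups of Gm8994 overlapped, so alike windows came with different values. Both are named for their windows, after their values were seen. Gm13128, now Pramel30, had 38.8, 36.1 and 60.2 CPM with arsenite, against 137, 90.3 and 121 CPM in controls (−1.23 ± 0.36, adjusted p = 0.0412, edgeR), a call that ended without arsenite replicate 1 (0.126), arsenite replicate 2 (0.0643), control replicate 1 (0.108) or control replicate 3 (0.0974). Gm13078, now Pramel24 and 85.7% identical to Gm13102, had 79.3, 111 and 144 CPM, against 34.0, 83.8 and 49.99 CPM. In edgeR it was called higher with the replicate block and not in the fit of all 6 libraries without it (1.16 ± 0.37, adjusted p = 0.0554, with the block 0.0209), and the DESeq2 Wald test (0.0250) and limma-voom (0.0432) called it higher.

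The PRAME-like array of chromosome 5 also held members called higher beside members with lower values. Gm6367 and Gm3259, now Pramel47, are nearest to C87414 and rose. Gm3139, now Pramel42, Gm3286 and Gm16513 are nearest to D5Ertd577e, and of these Gm3139 and Gm3286 lay lower on average and Gm16513 higher. Gm6367 had 463, 696 and 394 CPM in arsenite replicates 1, 2 and 3, against 143, 121 and 87.1 CPM in controls 1, 2 and 3 (log2 fold change 2.24 ± 0.32, adjusted p = 0.00463, edgeR). Gm3259 had 264, 371 and 185 CPM, against 73.7, 53.5 and 44.4 CPM (2.34 ± 0.34, adjusted p = 0.00485, edgeR), and C87414 had 552, 503 and 319 CPM, against 130, 89.5 and 82.1 CPM (2.29 ± 0.33, adjusted p = 0.00485). None of these 3 overlapped between groups. Gm3139 had 654, 1129 and 726 CPM with arsenite, against 1977, 1732 and 1351 CPM in controls. It lay below every control in every arsenite library but did not pass (−0.91 ± 0.31, adjusted p = 0.0651, edgeR), though it did under the block (0.0446). Gm3286 had 126, 368 and 145 CPM, against 383, 438 and 364 CPM (−0.80 ± 0.37, adjusted p = 0.150), and only arsenite replicate 2 reached the controls. Without arsenite replicate 2, their highest arsenite library, both were called lower, at adjusted p = 0.0342 for Gm3139 and 0.0146 for Gm3286 (edgeR). Leaving it out favours a lower call, and neither was called in any other fit with a library left out. Gm16513, 99.6% identical to Gm3139 in transcript and named after its values were seen, had 57.7, 112 and 124 CPM, against 49.2, 52.1 and 87.5 CPM, with overlapping groups (0.76 ± 0.39, adjusted p = 0.190, edgeR). D5Ertd577e had 5.89 to 14.4 CPM with arsenite and 10.3 to 17.5 CPM in controls (−0.38 ± 0.50, adjusted p = 0.622). Transcripts of the 5 members are 96.4% to 99.6% identical to their closest copy in the array, so reads may be split between them and single values are uncertain. The sum of the 5 members of the array, Gm16513 included, was 1566, 2676 and 1574 CPM with arsenite and 2626, 2397 and 1933 CPM in controls. These groups overlap, although the uncertain single values moved apart. Gm16367, at the far end of the same chromosome (chr5:468921-480774) and without a transcript to compare here, had 482, 963 and 499 CPM, against 1303, 1357 and 891 CPM (−0.77 ± 0.33, adjusted p = 0.123, edgeR). It was called lower without arsenite replicate 2 (0.0358), its highest arsenite library, and in no other fit with a library left out.

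**Figure D3:**
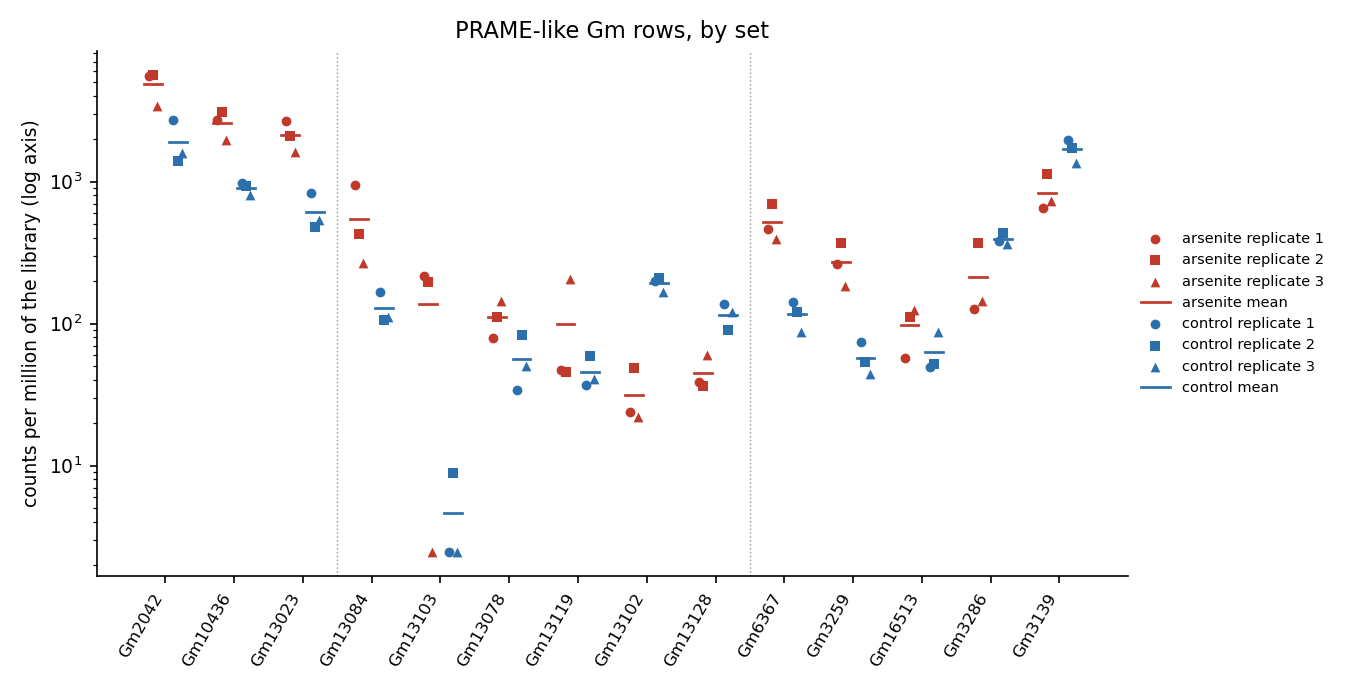
CPM on a log axis in each arsenite library (red) and control library (blue) for 14 PRAME-like Gm rows, with bars at group means: the 3 relatives of C87977 on the left, 6 neighbours on chromosome 4 in the middle, and the 5 rows of the chromosome 5 array on the right. Gm13102, Gm13128, Gm3286 and Gm3139 have lower arsenite means than control means while the other 10 have higher ones, and arsenite replicate 3 of Gm13103 sits among its controls.

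No member of the Tcstv3-like, Tdpoz, Speer4-like and chromosome 4 families below passed the test. Transcripts of the Tcstv3-like, Speer4-like and chromosome 4 members are 95.9% to 99.3% identical to their closest copy, so single values are uncertain. Gm20767 and Gm21761 are relatives of Tcstv3, a 2-cell gene, and summed to 94.8, 83.1 and 272 CPM in arsenite replicates 1, 2 and 3, against 66.4, 135 and 90.3 CPM in controls 1, 2 and 3. Only arsenite replicate 3 stood out, and neither member passed (log2 fold change 0.87 ± 0.47, adjusted p = 0.208 for Gm20767; 0.75 ± 0.54, adjusted p = 0.350 for Gm21761, edgeR). Gm9125, now Tdpoz9, named after its values were seen, had 483, 593 and 840 CPM, against 748, 681 and 907 CPM (−0.16 ± 0.33, adjusted p = 0.771), and its relative Tdpoz1, a gene of the speckle-type POZ family, was likewise not called (−0.02 ± 0.33, adjusted p = 0.969). The 4 members of a chromosome 4 family with no named relative, chr4:73401032-73920716, summed to 418, 1135 and 1365 CPM, against 395, 744 and 306 CPM. Here arsenite replicate 1 lay among the controls, and none of the 4 was called: Gm11238 gave 1.26 ± 0.42 (adjusted p = 0.0610, with the block 0.0448), Gm11756 1.05 ± 0.47 (0.143) and Gm11239 1.22 ± 0.48 (0.102). The 4 relatives of Speer4, a gene family known from testis, summed to 110, 115 and 240 CPM, against 67.6, 274 and 117 CPM, with overlapping groups. Gm21190, Gm21083 and Gm9758 had log2 fold changes of 0.23 ± 0.52, 0.27 ± 0.47 and 0.20 ± 0.51, and the smallest adjusted p of the 3 was 0.718.

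Of the 26 long noncoding members 12 rose, 14 did not pass and none fell (edgeR), with 3 higher when control replicate 3 was left out, 7 when arsenite replicate 1 was left out and 15 under the block. Of the 61 other long noncoding rows with a mean of at least 20 CPM 26.2% were called higher and 14.8% lower, and of all 466 other tested long noncoding rows 10.9% and 5.79%. The median log2 fold change was 1.42 over the 26 and −0.05 over the 61. The 26 summed to 4370, 4926 and 4915 CPM in arsenite replicates 1, 2 and 3 and to 2394, 2012 and 1765 CPM in controls 1, 2 and 3. The sources used here give no function for these members, so they are described by place and value. With an unknown strand setting, reads of an overlapping gene on the other strand cannot be told apart from theirs.

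Gm36480 (chr15:90353710-90368444) had 240, 140 and 202 CPM in arsenite replicates 1, 2 and 3, against 32.6, 42.0 and 10.6 CPM in controls 1, 2 and 3 (log2 fold change 2.93 ± 0.48, adjusted p = 0.00579, edgeR). Gm31579 (chr6:50906406-50910424) had 65.7, 145 and 53.7 CPM, against 10.1, 34.1 and 8.62 CPM (2.47 ± 0.53, adjusted p = 0.0148). Gm20362 (chr6:79032042-79035869) had 126, 119 and 148 CPM, against 46.8, 9.83 and 22.04 CPM (2.41 ± 0.53, adjusted p = 0.0156). In these 3 the groups did not overlap, and arsenite replicate 2 was the highest library for Gm31579 and the lowest of its group for Gm36480 and Gm20362. Gm13752 (chr2:80391364-80398216) had 99.8, 102 and 136 CPM, against 37.6, 17.0 and 14.9 CPM (2.39 ± 0.44, adjusted p = 0.00851). Gm3143 (chr3:34699640-34716662) had 354, 114 and 479 CPM, against 66.7, 50.1 and 80.9 CPM (2.42 ± 0.51, adjusted p = 0.0139, edgeR). Gm17751, which shares letters of its promoter window with Gm3143 and is named for that after its values were seen, had 658, 618 and 816 CPM, against 311, 110 and 260 CPM (1.72 ± 0.42, adjusted p = 0.0226). Both lay above every control in every arsenite library, with arsenite replicate 3 highest. Whether these values have to do with the alike windows was not tested. Without control replicate 3 the adjusted p was 0.0714 for Gm31579, 0.0710 for Gm20362, 0.0521 for Gm3143 and 0.0726 for Gm17751. Without arsenite replicate 1 it was 0.0537 for Gm20362 and for Gm3143 and 0.0687 for Gm17751, without control replicate 1 it was 0.0603 for Gm31579, without control replicate 2 it was 0.0520 for Gm3143, and without arsenite replicate 3 it was 0.0561 for Gm17751.

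Among long noncoding members Gm1965 took the most counts and, named after its values were seen, had 737, 1089 and 846 CPM with arsenite, against 258, 180 and 171 CPM in controls (log2 fold change 2.23 ± 0.32, adjusted p = 0.00463, edgeR). It lies within 1 Mb of another long noncoding member likewise named after its values were seen, Gm839, on chromosome 6 (chr6:89140994-89216179), which had 146, 327 and 129 CPM, against 63.6, 101 and 36.3 CPM (1.69 ± 0.42, adjusted p = 0.0231). Both lay above every control, and the call of Gm839 ended without arsenite replicate 1 (0.0608), arsenite replicate 2 (0.0716), control replicate 1 (0.0746) or control replicate 3 (0.107). The 14 long noncoding members that did not pass had log2 fold changes between −0.38 ± 0.41 (Gm16973) and 1.68 ± 0.61 (Gm10745, adjusted p = 0.0806, with the block 0.0264, edgeR).

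**Figure D4:**
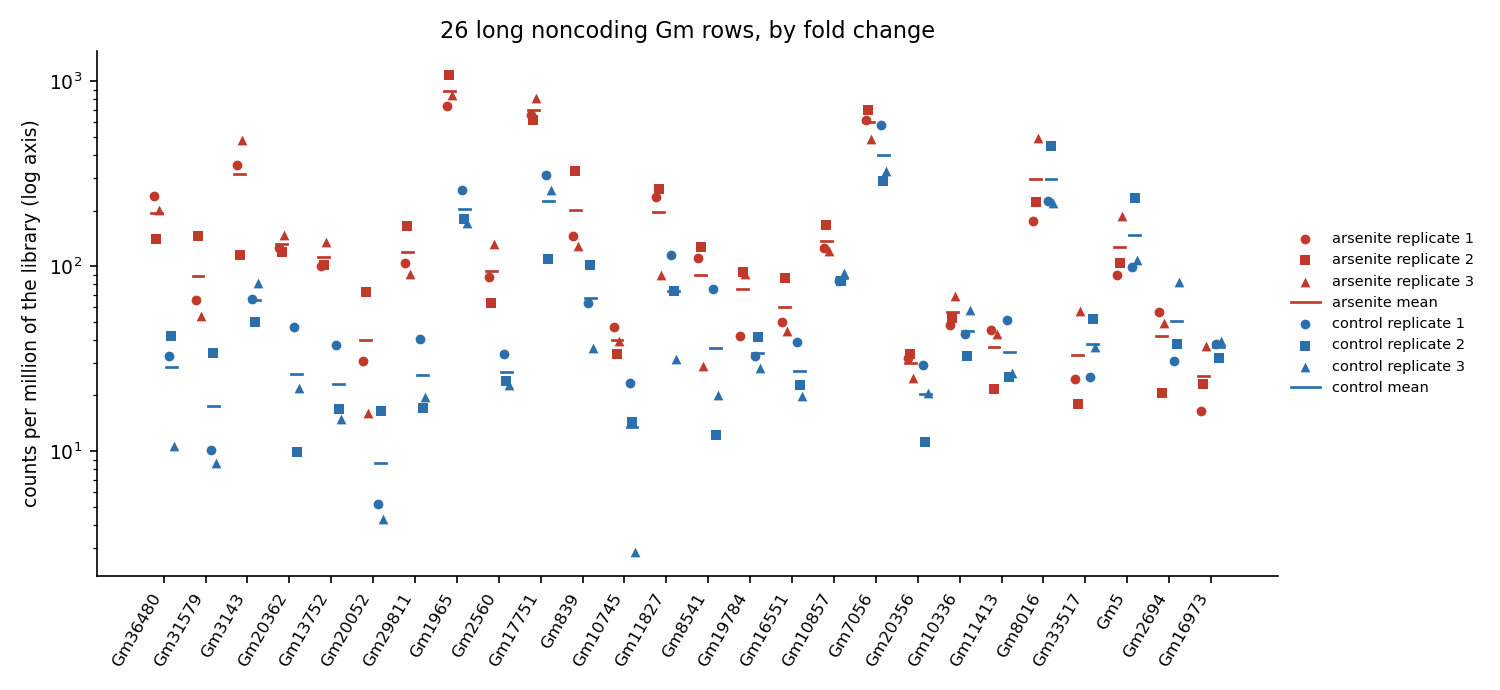
CPM on a log axis in each arsenite library (red) and control library (blue) for the 26 long noncoding Gm rows, ordered by falling log2 fold change, with bars at group means. In 14 of the 26 every arsenite library lies above every control, and in none do all lie below. Over all tested rows this held for 19.2% above and 22.1% below.

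Transcribed pseudogenes and processed copies were, where possible, set beside the named genes they resemble. Of 22 transcribed pseudogenes 6 rose and 2 fell, that is 27.3% and 9.09%, where of the 22 other transcribed pseudogene rows with a mean of at least 20 CPM 13.6% and 9.09% were called. Gm1821, now Ubb-ps, is 97.7% identical to the polyubiquitin gene Ubb and had 3000, 4190 and 3111 CPM in arsenite replicates 1, 2 and 3, against 1375, 3075 and 1759 CPM in controls 1, 2 and 3. Ubb had 3501, 4192 and 3265 CPM with arsenite, against 1609, 3405 and 1834 CPM in controls. In both, arsenite replicate 2 was the highest library and control replicates 1 and 3 the lowest, and reads of one could be counted for the other. In edgeR both were called with the block and neither in the fit of all 6 libraries without it (log2 fold change 0.87 ± 0.33, adjusted p = 0.0878, with the block 0.0320, for Gm1821; 0.83 ± 0.32, 0.0978 and 0.0429 for Ubb). Gm1821 was also called by the DESeq2 Wald test (0.0463), by limma-voom (0.0419) and in edgeR without control replicate 2 (0.0370). That library was its highest control, and no other fit with a library left out called Gm1821. Gm11517, a transcribed pseudogene on chromosome 11 (chr11:96795332-96798156), fell to 184, 123 and 416 CPM with arsenite, against 633, 854 and 1023 CPM in controls (−1.62 ± 0.46, adjusted p = 0.0384, edgeR). No arsenite library reached the lowest control. The call of Gm11517 ended without arsenite replicate 1 (0.126), control replicate 1 (0.0587), control replicate 2 (0.0702) or control replicate 3 (0.0974). Gm4541 is 98.7% identical to Nlrp4e, an oocyte gene of the NLR family, and had 250, 266 and 85.8 CPM with arsenite, against 26.1, 23.0 and 13.4 CPM in controls (3.36 ± 0.45, adjusted p = 0.00463, edgeR), with every arsenite library above every control. Nlrp4e itself had 443, 461 and 358 CPM with arsenite, against 107, 71.5 and 64.3 CPM in controls.

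Zinc finger copies did not all follow their relatives. Gm14405 and Gm20939 are given here because they fell. For the zinc finger copies Gm6712, Gm13212, Gm3604, Gm10509 and Gm10324, named after their values were seen, neither the copy nor its closest named gene was called (edgeR). Gm14405, a relative of Zfp971, had 18.3, 15.4 and 7.09 CPM in arsenite replicates 1, 2 and 3, against 62.9, 25.7 and 46.3 CPM in controls 1, 2 and 3 (log2 fold change −1.66 ± 0.48, adjusted p = 0.0401, edgeR). Gm14325, 85.5% identical to Gm14405, had 36.5, 23.95 and 43.2 CPM, against 14.9, 10.6 and 22.4 CPM (1.24 ± 0.45, adjusted p = 0.0779, with the block 0.0213), so 1 of the 2 lay below every control and the other above. Zfp971 had 9.89 to 12.4 CPM, against 4.34 to 7.51 CPM (1.00 ± 0.52, adjusted p = 0.197). Gm20939 had 14.1, 24.8 and 14.4 CPM, against 69.4, 29.8 and 46.8 CPM (−1.38 ± 0.43, adjusted p = 0.0486), while Zfp932, 82.3% identical over 59.5% of the shorter transcript, had 194, 170 and 88.3 CPM, against 92.1, 29.0 and 40.02 CPM (1.55 ± 0.48, adjusted p = 0.0476, edgeR). The call of Zfp932 ended without arsenite replicate 1 (0.163), arsenite replicate 2 (0.0883), control replicate 2 (0.126) or control replicate 3 (0.170). Without control replicate 1 the adjusted p was 0.142 for Gm14405 and 0.168 for Gm20939. The call of Gm14405 also ended without any 1 of the arsenite libraries or without control replicate 3 (0.0643 to 0.107), and that of Gm20939 without arsenite replicate 1 (0.153), arsenite replicate 3 (0.110) or control replicate 3 (0.111), and with limma-voom (0.0616). Apart from the zinc finger copies, Gm6880, now Ctag2l1 and on the X chromosome, had 5.77, 16.1 and 6.32 CPM, against 30.4, 58.5 and 52.3 CPM (−2.22 ± 0.46, adjusted p = 0.0128, edgeR), without overlap. Its call ended without arsenite replicate 1 (0.0604) or control replicate 3 (0.0562).

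A tested named gene with an alike transcript was found for 57 members, 42 different genes in all. Of the 19 of these members that were called, 12 had a named gene called in the same direction and 6 a named gene that was not called. For 1, Gm20939, the named gene was called in the other direction. The 12 are not separate agreements, since several share a named gene. BB287469 served Gm5662, Gm2016, Gm8300 and Gm6803, C87977 served Gm2042, Gm10436 and Gm13023, and C87414 served Gm6367 and Gm3259. Of the 38 members not called, 4 had a called named gene. Since 68 of the 98 members with a GENCODE transcript have at least 1 such relative in the table and shared reads could be counted for either, likeness of these values is a description only.

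**Figure D5:**
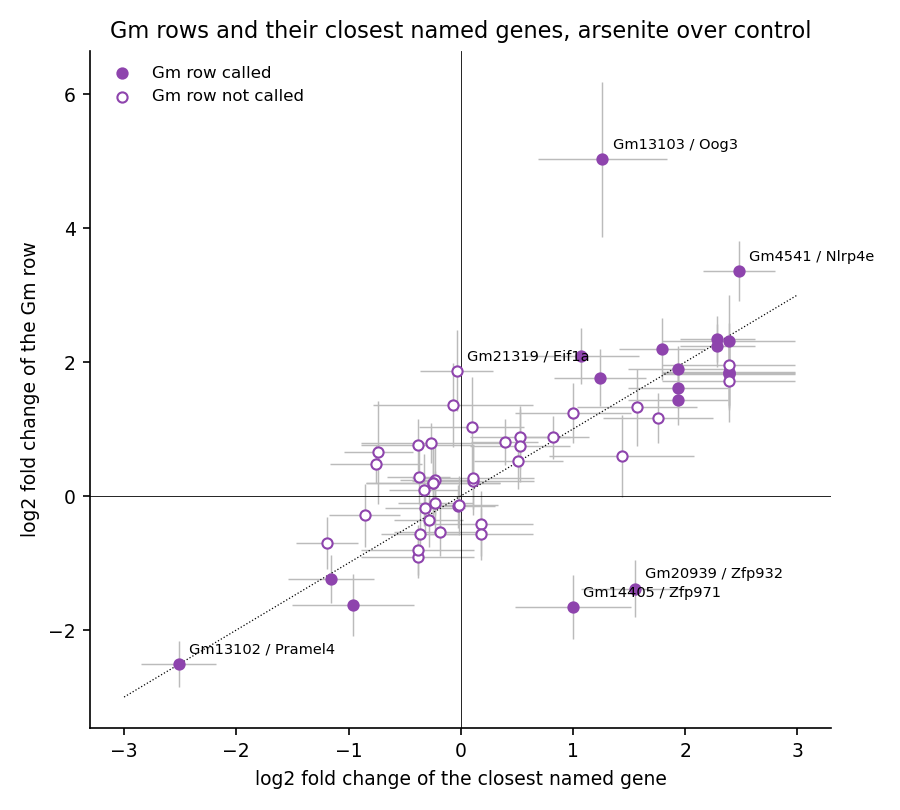
Log2 fold change, arsenite over control, of 57 Gm rows against that of the named gene with the closest transcript, with standard errors as bars and filled points where the Gm row has an adjusted p under 0.05 in edgeR. The dotted line marks equal values, and Gm13103, Gm14405 and Gm20939 lie far from it while Gm13102 lies on it.

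Of the other pairs, Gm11544 and Gm11545 (chr11:94755129-94849593) are 81.0% identical to each other and have no named relative found here. Gm11545 had 224, 291 and 299 CPM in arsenite replicates 1, 2 and 3, against 97.4, 107 and 98.3 CPM in controls 1, 2 and 3 (log2 fold change 1.56 ± 0.28, adjusted p = 0.00751, edgeR; 0.0503 without control replicate 3). Gm11544 had 230, 319 and 464 CPM, against 357, 1063 and 445 CPM (−0.69 ± 0.41, adjusted p = 0.261). The groups of Gm11545 were apart and those of Gm11544 overlapped. Around the limit of the choice, the means of Gm8787, Gm12794 and Gm5065 were 21.5, 21.5 and 21.4 CPM, and those of Gm527, Gm14440 and Gm13285, just outside, were 19.7, 19.6 and 19.4 CPM. Gm8787 is listed by RefSeq as an older symbol of Cfap47, a cilia gene, and whether the row counted that gene is not given. At a limit of 10 CPM there would be 174 members, of which 49 rose and 10 fell, and at 40 CPM 85 members, of which 26 rose and 3 fell.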

How the data were processed

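The authors deposited 1 table of raw, whole read counts, with gene symbols as rows and 3 arsenite and 3 control libraries as columns. The submitters' processing notes list the tools featureCounts 1.6.2, StringTie 2.1.4, STAR and DESeq2 1.30.1, and the build mm10, but no roles; for the annotation and the strand setting nothing is given in the sources used here. Per the labels' protocols the cDNA was amplified by PCR. The text there names a pair of library kits, so the kit is uncertain.

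Groups and replicate numbers came from the sample titles. In 11 rows the symbol had become a date (0.0432% to 0.0818% of a library's counts), and these were left out of the fit. Total counts were 8324235, 8391579 and 7758507 in arsenite replicates 1, 2 and 3 and 8519265, 7830516 and 8121485 in controls 1, 2 and 3. The counts were fitted over the whole table with edgeR 4.0.16 in R 4.3.3 (TMM, filterByExpr by group, quasi-likelihood F-test, two-sided, Benjamini-Hochberg), arsenite over control with no covariate. The common biological coefficient of variation was 0.495. The fit was tested on simulated data. Alternatives were DESeq2 size factors, library size only, no count filter, the DESeq2 1.42.0 Wald test, limma 3.58.1 with voom, the replicate number as a block, leaving out each library, and membership at 10 or 40 CPM. The median log2 fold change over all rows was −0.05 with library size scaling and 0.07 with TMM. Deviations from group means correlated across genes at 0.189, 0.221 and 0.178 where the replicate numbers match, and at −0.164 to −0.0238 where they do not. Deviations from a group mean cancel within the group, so positive values at matching numbers by themselves push the others below them. As each same-numbered value is over 0.1 the numbers may pair libraries, though no label tells what a shared number means. The main fit nevertheless has no covariate, and the block is given as an alternative.

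Gene types and positions are those of RefSeq (GRCm38.p6, the assembly behind mm10). Families were to be built from RefSeq descriptions or proteins, which were not used here; members were instead joined where GENCODE M21 transcripts are at least 80% identical over at least 50% of the shorter one (blastn 2.17.0), which gave 11 families of 35 members. Promoter sequences are RefSeq's (GRCm38.p6), and both strands were searched for each motif. By rule the text names the 8 members with most counts, the 8 largest rises, every fall (6), the 3 most abundant of each family and 3 rows on each side of the limit; any other member in the text was chosen after its values were seen. The members and lists were chosen with earlier results of these data known. The values of 1 named gene are not reported here.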

Additional observations from a re-analysis of the deposited data

How the results depend on the processing

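The 21 named members that were called kept their sign under every alternative run, and 381 of 468 recomputed values of the 39 named members kept sign and side of the threshold. The members called higher numbered 7 to 26 with 1 library left out and 49 with membership at 10 CPM. Those called lower numbered 1 to 7 with 1 library left out, 10 at 10 CPM and 3 at 40 CPM, and there were 174 members at 10 CPM. Over all tested rows 405 to 2002 were called with 1 library left out, 3274 by the DESeq2 Wald test and 3268 with the replicate block, against 2101; fits with a library left out hold fewer samples, and for the other differences the cause was not tested. With the replicate block 39 members were called higher and 9 lower; it added 12 calls and changed no other. Without the most abundant member, which itself took part of it, the share of counts was 2.77 ± 0.352% with arsenite and 1.82 ± 0.246% in controls (SD, n = 3 each). Of members not called, Gm21190 ran from −0.33 to 0.93, Gm21083 from −0.23 to 0.75, Gm9758 from −0.39 to 0.71 and Gm21761 from −0.23 to 0.99 in log2 fold change with 1 library left out, and Gm9758 was −0.0075 with library size only; the cause was not tested. The floor of 3 counts is at most 0.387 CPM.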
